A study of Mus musculus with 6 samples.

Results

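Genes that make, carry, sense and break down retinoic acid were followed in mast cells from mouse lymph nodes. The 9 genes were taken by symbol from the 17890 genes of the deposited table: Dhrs3, Aldh1a1, Aldh1a2, Crabp2, Rara, Rarb, Rarg, Cyp26a1 and Cyp26b1, and all 9 were found. They were selected on their measured levels in mLN against uLN, the contrast described here, so their values for it are given as a description, with no test. RNA was sequenced, as mRNA libraries made from total RNA, from mast cells of metastatic lymph nodes (mLN, 3 libraries) and of uninvolved lymph nodes (uLN, 3 libraries) of mice. No genotype, treatment or time beyond the state of the node is labelled. The sources used here do not give the mouse strain, sex and age, the tumour, or how the mast cells were isolated. Nothing in the labels says that the libraries of a group came from separate animals, so each p-value speaks only of the spread among the libraries at hand, and that spread may be technical.

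Retinol is oxidised to retinal and then to retinoic acid, and the last step is catalysed by retinaldehyde dehydrogenases such as Aldh1a1 and Aldh1a2, while Dhrs3 turns retinal back into retinol. Retinoic acid is carried to the nucleus by Crabp2, where it binds the receptors Rara, Rarb and Rarg, which pair with RXR receptors on response elements in DNA. Enzymes of the Cyp26 family hydroxylate retinoic acid and so remove it, and Cyp26a1 and Rarb are textbook targets of the receptors. In lymph nodes, above all those that drain the gut, retinoic acid is best known as a product of dendritic and stromal cells that acts on lymphocyte homing.

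Promoter sequences are shown for Cyp26a1, which differed most between the groups, for Rarb, the other textbook target among the 9 genes, and for Cyp26b1, the related hydroxylase, as a contrast. Each run is the 150 bases before an annotated transcript start, from RefSeq on GRCm38.p6, read 5′ to 3′ on the strand of the gene. Capitals mark a direct repeat of receptor sites with a spacing of 5 bases, searched on both strands, where each site may be AGGTCA or GGGTCA, and may also be AGTTCA or GGTTCA.
Cyp26a1 (chr19:37697658-37697807, plus strand): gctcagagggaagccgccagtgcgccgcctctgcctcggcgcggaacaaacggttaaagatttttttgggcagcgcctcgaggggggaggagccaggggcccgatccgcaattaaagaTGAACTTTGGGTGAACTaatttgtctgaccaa
Rarb (chr14:16575477-16575626, minus strand): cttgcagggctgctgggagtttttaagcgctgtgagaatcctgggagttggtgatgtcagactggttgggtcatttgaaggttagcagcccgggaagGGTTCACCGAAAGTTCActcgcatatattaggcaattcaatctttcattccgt
Cyp26b1 (chr6:84593811-84593960, minus strand): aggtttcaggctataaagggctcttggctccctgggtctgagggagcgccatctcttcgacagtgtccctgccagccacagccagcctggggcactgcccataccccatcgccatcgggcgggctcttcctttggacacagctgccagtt
In the Cyp26a1 run the repeat lies from position -32 to position -16, counted back from the transcript start, and reads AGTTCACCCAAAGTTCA on the opposite strand. In the Rarb run it lies from position -53 to position -37 and reads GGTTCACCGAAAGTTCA on the strand of the gene. The Rarb start used here is internal, 506.9 kb inside the outermost annotated start of that gene.

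Windows from 250 bases before to 50 bases after a start were available for 8 of the 9 genes, Crabp2 being the one without, 15 windows in all. The repeat with a spacing of 5 was in 2 of these 15 windows, and in 0.0974% of all 32851 windows. With a spacing of 1 or 2 it was in 0 of the 15 windows, against 0.222% and 0.268% of all windows. No such repeat was found in the Cyp26b1 window. Among the 96 other retinoid pathway genes described further on, 80 had a window and 0 held the repeat with a spacing of 5. A match of letters describes the sequence and was not tested as a binding site here.

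The libraries held 17643916 to 17799420 estimated reads each, and levels are given as CPM, counts scaled to library size by TMM. A floor of 3 reads in a library corresponds to 0.169 to 0.170 CPM. The 10 mast cell markers, among them Kit and Cpa3, summed to 39538 to 42221 CPM in mLN and 41235 to 43029 CPM in uLN. Within that list 3 genes were called higher in mLN and 5 lower. Kit had 3086 to 3173 CPM in mLN and 7538 to 7891 CPM in uLN, while Cma1 had 8934 to 10381 CPM in mLN and 4545 to 4904 CPM in uLN. The keratinocyte and fibroblast lists were highest in mLN replicate 1. The keratinocyte list summed to 204, 27.1 and 48.8 CPM in mLN, against 31.7, 31.4 and 18.3 CPM in uLN, and 9 of its 9 genes with at least 20 reads were highest in mLN replicate 1. Of its 6 tested genes, 5 were called higher in mLN and 0 lower. The fibroblast and node stroma list summed to 120, 19.2 and 33.1 CPM in mLN, against 30.4, 30.5 and 22.5 CPM in uLN. Of its 12 genes, 9 were in the deposited data, and Ccl19, Ccl21a and Cxcl13 were not. Among the genes present, 0 of either list were at 0 in every library. Of 7 fibroblast list genes with at least 20 reads, 6 were highest in mLN replicate 1. Among the 5 tested, 3 were called higher in mLN and 1 lower. Pdgfrb of that list had 6.06 to 6.41 CPM in mLN and 16.4 to 19.0 CPM in uLN. Markers of dendritic cells, a known source of retinoic acid, summed to 22.6 to 24.3 CPM in mLN and 23.6 to 24.8 CPM in uLN. In that list the groups overlapped for Flt3, with at most 0.345 CPM in any library, and for Xcr1, with 0.860 to 1.58 CPM. Clec9a had 4, 6 and 4 reads in mLN, against 1 read in each uLN library. Ccr7 had 7, 9 and 5 reads in mLN, against 2, 0 and 0 reads in uLN. Of that list 1 gene was called higher and 1 lower, Itgax with 12.2 to 14.2 CPM in mLN and 6.94 to 7.62 CPM in uLN, and Itgae with 6.39 to 7.004 CPM in mLN and 13.8 to 15.2 CPM in uLN. In such bulk RNA, fewer cells of a type and less RNA per cell cannot be told apart.

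Of the 9 genes, 5 passed the filter on low counts and 4 did not. Those 5 were Dhrs3, Rara, Rarg, Cyp26a1 and Cyp26b1. In edgeR's quasi-likelihood fit over all genes, 3 of the 5 were higher in mLN, 1 was lower and 1 was not called, while 67.4% of all 12706 genes tested were called, 33.2% as higher and 34.2% as lower. The groups did not overlap for 4 of these 5 genes, against 72.9% of all tested genes, and mLN lay above uLN for 3 of them (35.6% of all tested genes) and below it for 1 (37.3%). The genes were chosen with these differences known, so nothing is read from the counts.

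**Figure D1:**
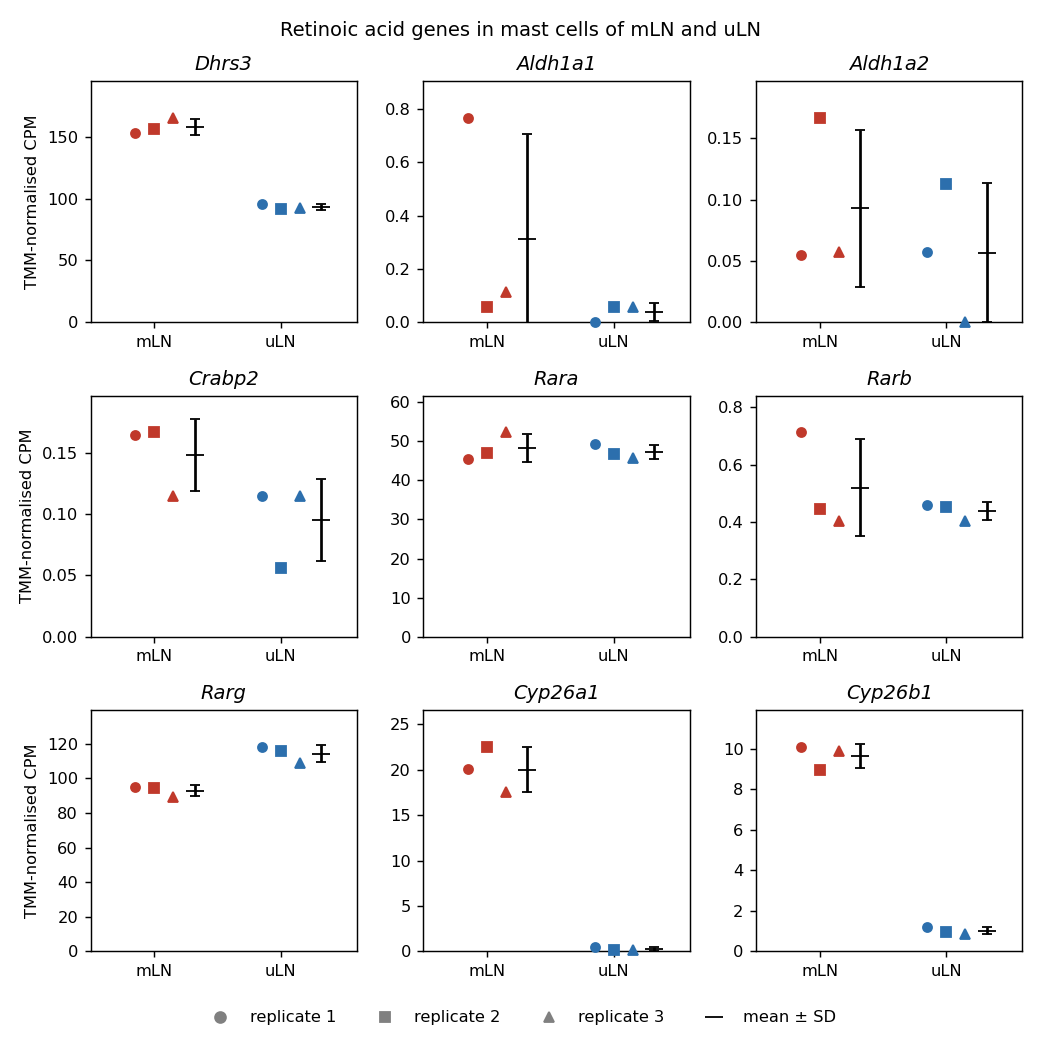
CPM of the 9 retinoic acid genes in each library (y axis, linear from 0, a different scale for each gene), mLN left and uLN right, with the mean ± SD of 3 libraries beside the points and bars cut at 0. Cyp26a1 lies at 17.5 to 22.5 CPM in mLN against 0.169 to 0.516 CPM in uLN, while the mLN and uLN points of Rara overlap.

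Cyp26a1, which hydroxylates retinoic acid, had 366, 405 and 305 reads in mLN replicates 1, 2 and 3, against 9, 3 and 3 reads in uLN replicates 1, 2 and 3. Every mLN library lay far above every uLN library. As CPM the level was 20.02 ± 2.50 in mLN and 0.286 ± 0.199 in uLN (SD, n = 3 each), a log2 fold change of 6.10 ± 0.25 (SE). The size of this difference is known only roughly, because it rests on 15 uLN reads. The ratio of the summed reads was 71.6 (exact 95% interval 43.2 to 128, for counting error only). Leaving out uLN replicate 1, with 9 of the 15 reads, gave a fitted fold of 112, against 68.5 with it. Leaving out mLN replicate 1, the library with the most keratinocyte transcripts, gave 68.5 as well, and leaving out mLN replicate 2 or 3 gave 64.2 or 73.0. Without uLN replicate 2 or 3 the fitted fold was 57.1 or 57.2. By size of log2 fold change Cyp26a1 was number 7 of the 12706 tested genes. Its locus (gene ID 13082) is on chromosome 19, 37697738 to 37701536, in GRCm38.

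Cyp26b1, another hydroxylase, had 184, 161 and 172 reads in mLN, against 21, 17 and 15 reads in uLN. The groups were again far apart, and no library stood out within either group. The level was 9.63 ± 0.6004 CPM in mLN and 1.01 ± 0.176 CPM in uLN (SD, n = 3 each), with a log2 fold change of 3.25 ± 0.17 (SE), or 9.497-fold. Under the alternatives tried the fold ran from 8.82 to 10.5. Unlike Cyp26a1, the Cyp26b1 window shown above holds no direct repeat of the kind searched. Its locus (gene ID 232174) is on chromosome 6, 84571414 to 84593908.

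The third member of the family, Cyp26c1, which also acts on retinoic acid, lies 4.42 kb before Cyp26a1 on chromosome 19. It had 30, 22 and 18 reads in mLN, against 0, 0 and 2 reads in uLN. The read ratio was 34.9 (exact 95% interval 9.32 to 294). Leaving out uLN replicate 3, the only uLN library with reads, mLN was at least 7.62-fold higher, taking 3 reads in a library as the floor. Cyp26c1 was called higher (adjusted p = 8.92e-05, edgeR's quasi-likelihood test, adjusted over all genes) and was higher in 3 of 3 mLN libraries than in any uLN library.

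Levels of different genes can be compared only per length, so CPM was divided by the kilobases of annotated exon. On that scale the 3 hydroxylases together came to 12.6 ± 1.26 CPM per kb in mLN and 0.354 ± 0.116 CPM per kb in uLN (SD, n = 3 each). Cyp26a1 made up 79.8 ± 2.57% of that sum in mLN and 37.9 ± 13.8% in uLN. Cyp26b1 made up 14.4 ± 2.10% in mLN and 55.1 ± 11.2% in uLN. Cyp26a1 was ahead in all 3 mLN libraries. In uLN, where it rests on 9, 3 and 3 reads, Cyp26a1 was ahead of Cyp26b1 in replicate 1 (53.6% against 46.4%) and behind it in replicates 2 and 3.

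**Figure D2:**
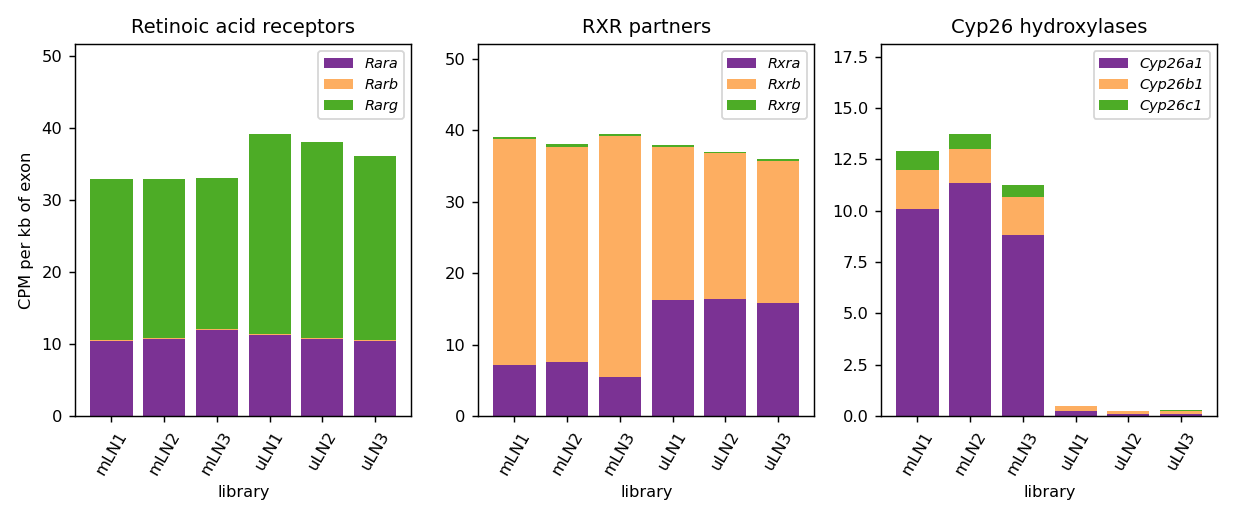
Stacked levels per length (y axis, CPM per kb of exon, from 0) of the retinoic acid receptors, the RXR receptors and the Cyp26 hydroxylases, 1 bar for each library, mLN left of uLN. The retinoic acid receptor sum averages 33.0 in mLN and 37.7 in uLN and is lower in every mLN library than in any uLN library. The RXR sum averages 38.9 in mLN and 37.0 in uLN, and the hydroxylase sum averages 12.6 in mLN and 0.354 in uLN.

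Dhrs3, which reduces retinal to retinol and so draws substrate away from retinoic acid synthesis, was the most abundant of the 9 genes. It had 2803, 2813 and 2887 reads in mLN, against 1674, 1625 and 1612 reads in uLN. All mLN libraries lay above all uLN libraries, with little spread in either group. The level was 159 ± 6.39 CPM in mLN and 93.4 ± 2.24 CPM in uLN (SD, n = 3 each), a log2 fold change of 0.76 ± 0.05 (SE), or 1.70-fold. Dhrs3 (gene ID 20148), on chromosome 4 from 144892534 to 144928209, lies inside the annotated span of Vps13d, and the sources used here do not say whether the counting used strand. Vps13d itself was not called (log2 fold change of -0.11).

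The dehydrogenases that make retinoic acid were close to absent in these libraries. Aldh1a2 (gene ID 19378, chromosome 9 from 71215789 to 71296243) had 1, 3 and 1 reads in mLN, against 1, 2 and 0 reads in uLN. No library exceeded the floor of 3 reads, so no difference was detectable at this depth. Aldh1a1 (gene ID 11668, chromosome 19 from 20492583 to 20643463) had 14, 1 and 2 reads in mLN, against 0, 1 and 1 reads in uLN. Its reads came mostly from mLN replicate 1. With that library the read ratio was 8.48 (exact 95% interval 2.01 to 75.7), and without it the mean level was 0.0852 CPM in mLN and 0.0380 CPM in uLN, both under the floor. Aldh1a3, the third enzyme of this kind, had 14, 2 and 5 reads in mLN, against 1, 1 and 0 reads in uLN, also highest in mLN replicate 1. Near-identical reads may be shared between Aldh1a1 and its neighbour Aldh1a7, which averaged 0.0183 CPM in mLN and 0.0191 CPM in uLN.

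Crabp2 (gene ID 12904, chromosome 3 from 87948693 to 87953372), the carrier that hands retinoic acid to its receptors, had 3, 3 and 2 reads in mLN, against 2, 1 and 2 reads in uLN. Every library was at or under the floor. Fabp5, a fatty acid binding protein known to carry retinoic acid to another receptor, Ppard, was better covered and fell in mLN. It had 85, 85 and 85 reads in mLN, against 149, 263 and 210 reads in uLN, a log2 fold change of -1.31 ± 0.19 (SE, adjusted p = 0.000115, edgeR's quasi-likelihood test). Ppard rose 1.54-fold, to 62.3 ± 2.61 CPM in mLN against 40.3 ± 1.54 CPM in uLN (SD, n = 3 each).

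Rarg was the leading retinoic acid receptor in both groups. It had 1735, 1696 and 1557 reads in mLN, against 2061, 2052 and 1896 reads in uLN. The groups did not overlap, and every mLN library was below every uLN library. The level was 92.9 ± 3.07 CPM in mLN and 114 ± 4.79 CPM in uLN (SD, n = 3 each), a log2 fold change of -0.30 ± 0.05 (SE). Its locus (gene ID 19411) is on chromosome 15, 102234938 to 102257522.

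Rara had 832, 843 and 910 estimated reads in mLN, against 860, 828 and 797 in uLN. The groups overlapped, and the log2 fold change of 0.03 ± 0.07 (SE) was smaller than its error, and from -0.03 to 0.07 over the alternatives tried. The level was 48.2 ± 3.54 CPM in mLN and 47.3 ± 1.82 CPM in uLN (SD, n = 3 each). Its locus (gene ID 19401) is on chromosome 11, 98927800 to 98974942, where the gene model Gm46294 overlaps it. Its estimated reads are not whole numbers, so reads may have been shared between genes or transcripts.

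Rarb, whose window holds the repeat shown above, had 13.1, 8.05 and 6.88 estimated reads in mLN, against 8.27, 8.07 and 7.17 in uLN. Only mLN replicate 1 stood out, and the other libraries of both groups lay close together. Without that library the mean level was 0.423 CPM in mLN, against 0.437 ± 0.0308 CPM in uLN (SD, n = 3). Rarb (gene ID 218772), on chromosome 14 from 16430839 to 17082331, ends 52 bases from the gene Top2b. The read ratio of Rarb was 1.22 (exact interval 0.675 to 2.21, for counting error only), and the filter on low counts removed the gene. Cyp26a1 and Rarb share the repeat. The groups lay far apart for Cyp26a1 and overlapped for Rarb, whose few reads cannot show whether its level changed. The Rarb count is for the whole gene, while the repeat lies before an internal start. The part of the repeat in either level was not tested.

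Per length, Rarg made up 66.2 ± 2.32% of the summed level of the 3 receptors in mLN and 71.1 ± 0.441% in uLN. Rara made up 33.5 ± 2.39% in mLN and 28.7 ± 0.446% in uLN. The sum was 33.0 ± 0.0732 CPM per kb in mLN and 37.7 ± 1.504 CPM per kb in uLN (SD, n = 3 each).

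**Figure D3:**
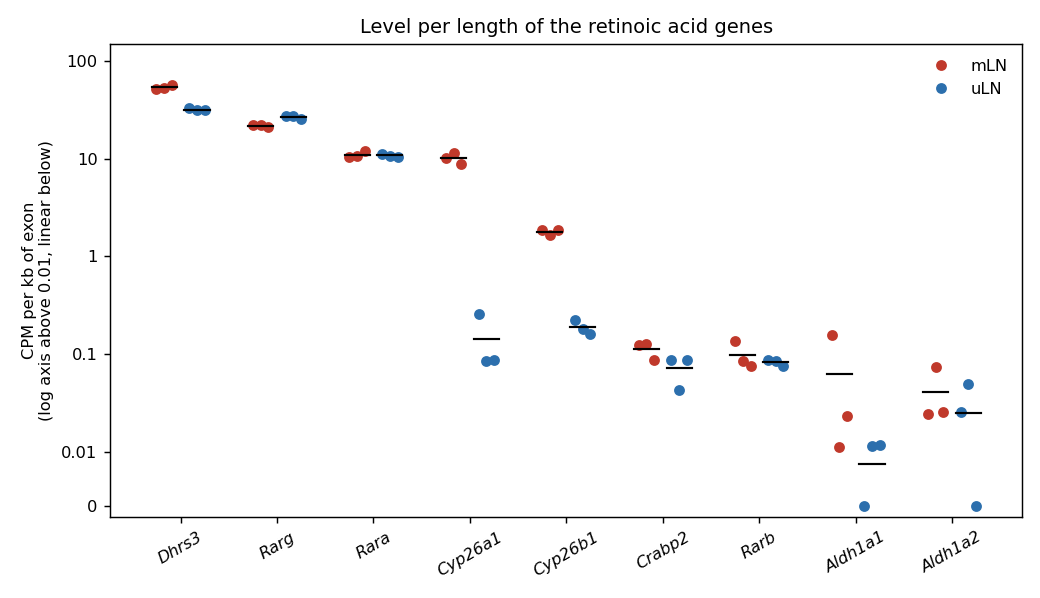
Level per length of the 9 genes (y axis, CPM per kb of exon, logarithmic above 0.01 and linear below), 1 point for each library with a line at the mean, mLN left of uLN for each gene, in the order of the mLN means. Cyp26a1 stands beside Rara in mLN at 10.1 on average and among the lowest genes in uLN at 0.144.

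In the order of levels per length, Dhrs3 came first, then Rarg and then Rara in both groups. In mLN these were 54.2, 21.8 and 11.05 CPM per kb, and in uLN 31.9, 26.8 and 10.8 CPM per kb. Dhrs3, Rarg and Rara were apart from each other beyond the range of their libraries in both groups. Cyp26a1 came next in mLN at 10.1 ± 1.26 CPM per kb, and its libraries, at 8.83 to 11.4, overlapped in part with those of Rara, at 10.4 to 11.97. In uLN it stood at 0.144 ± 0.1005 CPM per kb, next to Cyp26b1, and its libraries, at 0.0854 to 0.260, lay on both sides of those of Cyp26b1, at 0.161 to 0.225. Crabp2, Rarb, Aldh1a1 and Aldh1a2 filled the last places in both groups, and neighbours among them overlapped.

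The receptors act in pairs with RXR, of which Rxra fell and Rxrb rose (adjusted p of 1.22e-06 and 3.58e-06, edgeR's quasi-likelihood test). Rxra had 713, 738 and 520 reads in mLN, against 1544, 1583 and 1508 reads in uLN. It fell 2.40-fold, to 36.6 ± 5.97 CPM in mLN against 88.2 ± 1.39 CPM in uLN (SD, n = 3 each). Rxrb rose 1.55-fold, to 126 ± 7.11 CPM in mLN against 81.8 ± 3.14 CPM in uLN (SD, n = 3 each). The groups did not overlap for either gene. Rxrg had at most 16.1 reads in a library and was not called. Per length, Rxrb made up 81.8 ± 3.23% of the RXR sum in mLN and 55.7 ± 0.806% in uLN, while the sum itself was 38.9 ± 0.723 CPM per kb in mLN and 37.0 ± 0.931 CPM per kb in uLN. Rxra and Rxrb are named here after their values were seen.

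In the wider pathway, 107 other genes were listed in 5 groups by role, of which 96 were in the table and 65 passed the filter. Of these 65 genes, 26 rose, 26 fell and 13 were not called, where 33.2% of all tested genes rose and 34.2% fell. Their median log2 fold change was -0.02, against -0.01 over all genes. All 5 lists were chosen with earlier results of these data known, so their counts and medians are given as a description.

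**Figure D4:**
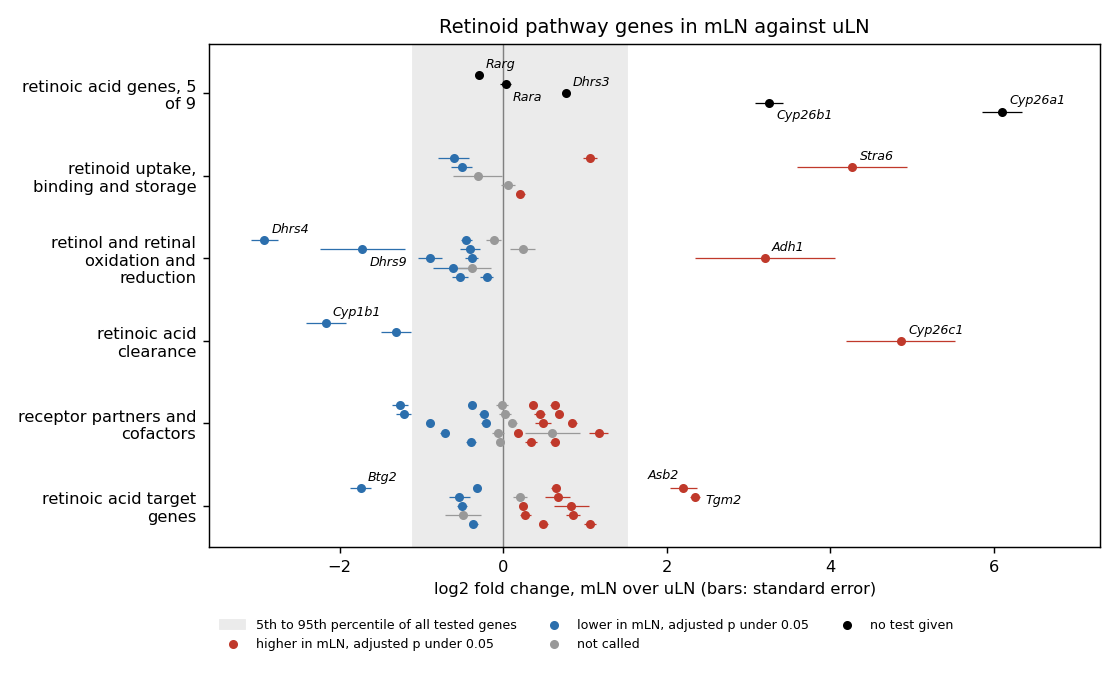
Log2 fold change of mLN over uLN (x axis, bars are standard errors) for the tested retinoid genes, by role (rows), with 1 gene not shown. Red points were called higher in mLN, blue points lower, grey points were not called, black points are the 5 tested genes of the set, for which no test is given, and the shaded band holds the 5th to 95th percentile of all tested genes (-1.11 to 1.51). Cyp26a1, Cyp26b1, Cyp26c1, Stra6, Adh1, Asb2 and Tgm2 lie to the right of the band. Dhrs4, Cyp1b1, Btg2, Dhrs9, Fabp5, Rxra and Gps2 lie to the left of it.

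Among genes of retinoid uptake, binding and storage, 4 of 8 tested rose and 2 fell, against 33.2% and 34.2% of all tested genes. Their median log2 fold change was 0.13. Scarb1, a receptor for lipoproteins and carotenoids, rose 2.08-fold, to 47.4 ± 5.09 CPM in mLN against 22.7 ± 1.67 CPM in uLN (SD, n = 3 each, adjusted p = 2.62e-06, edgeR's quasi-likelihood test). Lipe, a hydrolase that can release retinol from its esters, rose 1.15-fold (adjusted p = 0.00698, same edgeR test). Stra6, the cell surface receptor for retinol bound to its plasma carrier, had 36, 11 and 19 reads in mLN, against 1 read in each uLN library. It is named here after its values were seen, and its read ratio was 21.96 (exact 95% interval 7.19 to 109). Without mLN replicate 1, its highest library, the level was 0.851 CPM in mLN and 0.0571 CPM in uLN. Lpl, the lipoprotein lipase, fell 1.42-fold (adjusted p = 0.00463, same edgeR test). Lrat, which esterifies retinol for storage, had 13, 0 and 0 reads in mLN, against 0, 1 and 0 reads in uLN.

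Among enzymes of retinol and retinal conversion, 9 of 13 tested fell and 1 rose, against 34.2% and 33.2% of all tested genes. Their median log2 fold change was -0.40. Dhrs4, a reductase of retinal and other carbonyls, fell furthest, to 1.36 ± 0.257 CPM in mLN against 10.3 ± 0.420 CPM in uLN (SD, n = 3 each), a log2 fold change of -2.92 ± 0.17 (SE, adjusted p = 1.65e-07, edgeR's quasi-likelihood test). Rdh13 fell by 0.90, Dhrs7 by 0.53 and Adh5 by 0.45 on the log2 scale (adjusted p of 0.000327, 0.000604 and 0.000170, same edgeR test). Rdh10, the main retinol dehydrogenase of embryos, fell by 0.40 on the log2 scale, to 7.62 ± 0.605 CPM in mLN against 10.1 ± 1.11 CPM in uLN (SD, n = 3 each). Without uLN replicate 2 its call was lost (adjusted p = 0.0671 in edgeR's quasi-likelihood test, against 0.0123 with it and 0.00978 to 0.0671 over the alternatives). The 1 gene that rose was Adh1, an alcohol dehydrogenase that also oxidises retinol. It had 102, 15 and 18 reads in mLN, against 8, 5 and 1 reads in uLN. Its log2 fold change was 3.19 (adjusted p = 0.007, edgeR's quasi-likelihood test), and 1.78 without mLN replicate 1 (adjusted p = 0.0183, range 9.22e-05 to 0.0361 over the alternatives). Rdh10 and Adh1 are named here after their values were seen.

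Many retinoid genes with few reads were highest in the same library as Aldh1a1 and Rarb. Of 18 other pathway genes that the filter removed and that had at least 10 reads in all, 10 were highest in mLN replicate 1. That library also had the most genes with a read, 16182 against 15597 to 16092 in the others. The share over all genes that the filter removed was not counted. Adh7 had 88, 6 and 7 reads in mLN, against 3, 7 and 2 reads in uLN, and Ttr, the plasma carrier transthyretin, had 88, 0 and 11 reads in mLN, against 3, 3 and 2 reads in uLN. The basal keratin Krt5 had 2101, 215 and 448 estimated reads in mLN, against 196, 206 and 75.8 in uLN, and the fibroblast gene Dcn had 591, 20 and 61 reads in mLN, against 27, 23 and 9 reads in uLN. The part of these other transcripts in the values of Aldh1a1, Aldh1a3, Rarb, Adh1 and Adh7 was not tested. Cyp26a1 was highest in mLN replicate 2 and Dhrs3 in mLN replicate 3, while Cyp26b1 and Cyp26c1 were highest in mLN replicate 1. In mLN replicates 1, 2 and 3, Cyp26b1 had 10.1, 8.95 and 9.87 CPM, and Cyp26c1 had 1.64, 1.22 and 1.03 CPM.

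**Figure D5:**
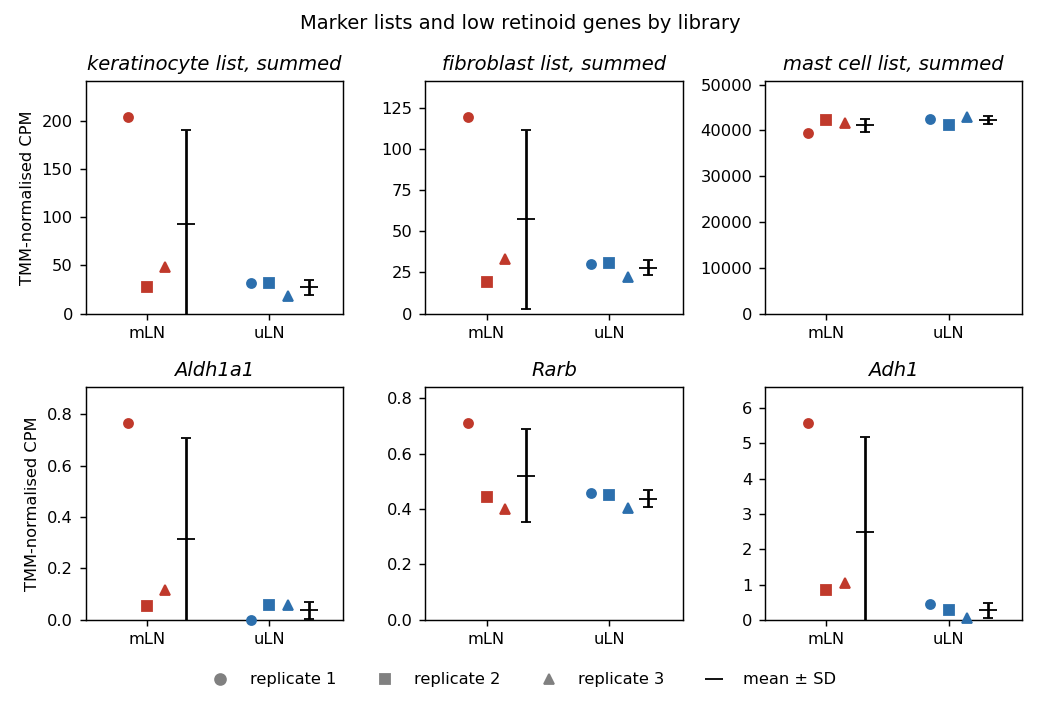
CPM by library (y axis, linear from 0) of the summed keratinocyte, fibroblast and mast cell marker lists and of Aldh1a1, Rarb and Adh1, mLN left and uLN right, with the mean ± SD of 3 libraries and bars cut at 0. The keratinocyte list reaches 204 CPM in mLN replicate 1, where Aldh1a1, Rarb and Adh1 are highest too, while the mast cell list lies between 39538 and 43029 CPM in all libraries.

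In the list of retinoic acid clearance and binding, 3 genes other than the hydroxylases already given as part of the 9 were tested, with Cyp26c1 higher and Fabp5 and Cyp1b1 lower. Cyp1b1, a cytochrome that can make retinoic acid from retinol, had 19, 17 and 14 reads in mLN, against 57, 87 and 78 reads in uLN. It fell by 2.17 on the log2 scale (adjusted p = 2.15e-05, edgeR's quasi-likelihood test). In uLN, Cyp1b1, Fabp5, Lpl and Lrp1 were each highest in replicate 2, as were the macrophage genes Cd5l with 158, 285 and 202 reads and Csf1r with 109, 195 and 137 estimated reads in uLN replicates 1, 2 and 3. The macrophage genes Cd163, Mrc1 and C1qb were highest in uLN replicate 3 instead. Cd163 had 197, 192 and 211 estimated reads and Mrc1 had 41, 65 and 66 reads in uLN replicates 1, 2 and 3. The macrophage list of 10 genes had none at 0 and summed to 164, 160 and 181 CPM in mLN, against 77.0, 105 and 89.9 CPM in uLN, led by Cd68 with 1672, 1564 and 1605 reads in mLN, against 354, 527 and 430 reads in uLN. In that list 3 of 9 tested genes rose and 6 fell, and the part of macrophage RNA in these falls was not tested.

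Among receptor partners and cofactors, 10 of 24 tested rose and 8 fell, against 33.2% and 34.2% of all tested genes. Their median log2 fold change was 0.07. Ncoa3, a coactivator of nuclear receptors, rose to 342 ± 27.1 CPM in mLN against 191 ± 6.16 CPM in uLN (SD, n = 3 each, adjusted p = 7.14e-07, edgeR's quasi-likelihood test). Crebbp, a histone acetyltransferase that the receptors recruit, fell to 61.1 ± 1.95 CPM in mLN against 113 ± 4.004 CPM in uLN (adjusted p = 1.58e-07, same edgeR test). Within the corepressor complex, Tbl1x rose 1.603-fold and Gps2 fell 2.32-fold, and Ncor1, the scaffold of that complex, rose 1.36-fold. The enzyme of the complex, Hdac3, had 43.5 ± 4.05 CPM in mLN and 45.7 ± 2.02 CPM in uLN (SD, n = 3 each) and was not called.

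Genes known in other cells to rise with retinoic acid were listed separately, without the 9 genes. Of 17 tested, 10 rose and 5 fell, against 33.2% and 34.2% of all tested genes. Their median log2 fold change was 0.27, against -0.01 over all genes. The list was chosen with earlier results of these data known, so nothing is read from these counts or this median. Tgm2, the tissue transglutaminase, had 4667, 4355 and 3858 reads in mLN, against 818, 818 and 849 reads in uLN. It rose 5.07-fold, to 240 ± 17.2 CPM in mLN against 47.3 ± 1.35 CPM in uLN (SD, n = 3 each), with an adjusted p = 1.94e-09 in edgeR's quasi-likelihood test. Asb2, a ubiquitin ligase subunit first found as a retinoic acid response gene in myeloid leukaemia cells, rose 4.596-fold, with 614, 639 and 399 reads in mLN, against 103, 123 and 125 reads in uLN (adjusted p = 1.19e-06, same edgeR test). Icam1, an adhesion molecule, rose 2.08-fold (adjusted p = 6.06e-07, same edgeR test).

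Other listed targets went the other way. Btg2, which restrains proliferation, fell 3.35-fold, to 55.2 ± 8.14 CPM in mLN against 185 ± 33.7 CPM in uLN (SD, n = 3 each, adjusted p = 1.16e-06, edgeR's quasi-likelihood test). The gut-homing integrin chains, best known as retinoic acid targets in lymphocytes, were split. Itga4 rose by 0.49 and Itgb7 fell by 0.32 on the log2 scale, and the homing receptor Ccr9 had 5.93, 4 and 7.06 estimated reads in mLN, against 3.03, 5.03 and 6 in uLN. Itga4, Itgb7 and Ccr9 are named here after their values were seen.

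The repeat with a spacing of 5 was found in a window of 31 genes, of which 12 were in the table and 6 were tested. Besides Cyp26a1 the tested ones were Blvrb, Cfap45, Tnfsf13b, Hbb-y and LOC102633156. Of these 5, 2 were called higher and 0 lower, where 33.2% of all tested genes were called higher. Blvrb, a biliverdin reductase, rose by 0.95 on the log2 scale. Cfap45, a cilium protein, rose by 1.52, a call that was lost without mLN replicate 1 or 2 and without uLN replicate 2 or 3 (adjusted p from 0.0551 to 0.0759, against 0.0169 with all libraries and 0.000234 to 0.0759 over the alternatives, edgeR's quasi-likelihood test). Nothing is read from so few genes about the element.

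The genes most like Cyp26a1 over the 6 libraries were sought among 11895 tested genes that averaged 1 CPM or more, by the root mean square difference of log2(CPM + 0.1) after centring. Prtn3, a serine protease of granules, was nearest at 0.38, followed by the chemokines Ccl22 at 0.49 and Ccl5 at 0.69. Prtn3 had 14.0 ± 0.663 CPM in mLN and 0.247 ± 0.119 CPM in uLN (SD, n = 3 each). Ccl22 had 97, 163 and 134 reads in mLN, against 0 reads in every uLN library, at least 43.0-fold higher when the floor is 3 reads in a library. With 3 libraries in each of 2 groups, the measure mostly reflects the difference between the groups.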

How the data were processed

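The submitters' processing notes name TopHat, cutadapt and FastQC and the build GRCm38, without versions, and the sources used here do not say which tool counted reads or whether strand was used. The deposited values are estimated counts for each gene in each library, in 1 table, with no scaling stated by the authors. Of its 17891 rows, 1 names no gene and was left out, and 26 symbols turned into dates were restored by gene ID. Between 32.2% and 32.8% of a library's values were not whole numbers, so counts were rounded for the tests.

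mLN was compared with uLN by edgeR 4.0.16 in R 4.3.3 (quasi-likelihood test, TMM, default expression filter, 12706 genes kept, Benjamini-Hochberg adjustment, called at 0.05), a script first tested on simulated data. The standard error is the log2 fold change divided by the square root of F. Alternatives were RLE factors, library totals, no filter, DESeq2 1.42.0, leaving out each library and a replicate block. Exon lengths came from GENCODE M21, coordinates, neighbours and promoters from RefSeq GRCm38.p6, where 17764 gene IDs matched. Intervals are exact binomial ones and, like the floor, cover counting error only, since reads carry no molecular identifiers.

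Pairs of libraries of 1 group differed by a mean chi-square per gene of 2.06 to 11.4, above counting error for each pair, so each was kept as a sample. The highest values, 11.1 and 11.4, were those of mLN replicate 3 with mLN replicates 1 and 2. Replicates 1 and 2 of mLN differed by 3.77, and pairs within uLN by 2.06 to 2.91. Such values do not show whether the libraries came from separate animals.

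The 9 genes and all lists were chosen with earlier results of these data known. Outside the 9 genes, up to 4 called genes per list with a mean of at least 1 CPM are named in the order of their adjusted p, and every other gene named was chosen after its values were seen. Some genes of these lists enter the counts and medians but are not reported here by name.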

Additional observations from a re-analysis of the deposited data

How the results depend on the processing

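Of all tested genes, 4219 rose and 4347 fell. Across RLE factors, library totals, no expression filter, DESeq2 and leaving out each library in turn these counts ran from 3843 to 4458 for rises and from 3931 to 4568 for falls. Of the other pathway genes, 26 rose and 26 fell among the 65 tested, 26 to 27 rose and 21 to 26 fell among the 65 or 66 tested with other scaling or a library left out, and with all 96 tested 32 rose and 26 fell without the filter and 30 rose and 24 fell in DESeq2. Of 55 values of the 5 tested retinoic acid genes under these alternatives and the replicate block, 1 moved by more than the spread between replicates, Cyp26a1 without uLN replicate 1 (log2 fold change of 6.81 against 6.10). For the other genes checked, 5 of 374 values lost their call, those of Cfap45 and Rdh10 given in the report, and 0 turned round. With the longest transcript as length, Crabp2 and Rarb swapped places in mLN, 2 places changed over both groups. Equal replicate numbers did not deviate together (correlations of 0.02, -0.15 and -0.01 for replicates 1, 2 and 3). Unequal numbers gave correlations from -0.16 to 0.19. With 3 libraries in each group these values cannot show whether libraries were paired, and the labels do not say. With the replicate block, 4122 genes were higher and 4263 lower, and 26 and 24 of the pathway genes. Depth limits Aldh1a1, Aldh1a2 and Crabp2, which had at most 3 reads in 5 or 6 of the 6 libraries.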

Other observations

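Genes beside the retinoic acid genes were looked up for their own change in edgeR's quasi-likelihood fit, as a description of the loci. Cyp26a1 and Cyp26c1 stand side by side on chromosome 19, between Exoc6, 13.7 kb before Cyp26a1, and Myof, 198 kb after it. Exoc6, an exocyst subunit, rose by 0.20 on the log2 scale, and Myof, a membrane repair protein, fell by 1.30. At Cyp26b1, the neighbour Exoc6b, 24.6 kb away, rose by 0.48 on the log2 scale. Next to Rara, the replication gene Cdc6 was not called, and the topoisomerase Top2a, 18.0 kb away, rose by 1.72 on the log2 scale. Itgb7, 1.53 kb from Rarg, fell by 0.32 on that scale, where Rarg had -0.30. Top2b, 52 bases from Rarb, fell by 0.46.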
